A study of Homo sapiens with 3 samples.

Results

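The transcripts described here are those of 10 genes for RS-rich proteins of nuclear speckles and for the TRA2 splicing activators, namely SRRM1, SRRM2, SON, PNN, ACIN1, BCLAF1, THRAP3, NSRP1, TRA2A and TRA2B. They were followed in an enhanced crosslinking immunoprecipitation (eCLIP) of the splicing factor RBM17 from K562, an established chronic myelogenous leukemic cell line. The 10 genes were taken by name, out of 10872 genes with a cluster of reads in replicate 2. The clusters of a gene were those carrying its Ensembl identifier in replicate 2, and the replicate 1 clusters and the reproducible peaks were those on the same strand within the span of these clusters.

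There were 2 RBM17 eCLIP samples and 1 size-matched input. All came from K562 in standard medium, with no treatment, time point or gene modification named in the labels. The cells, 20 × 10⁶ of them, had been crosslinked with 254 nm light at 400 mJ per square cm. Each immunoprecipitation used 10 μg of a mixture of 2 antibodies to RBM17. The single input was a 2% portion set aside after incubation with antibody and beads but ahead of the separation and washes, and was cut from the same gel region of 50 to 125 kDa. The labels call the eCLIP samples duplicates without saying whether they came from separate cultures. In replicate 2, the amount of a transcript and the binding per transcript cannot be told apart, since its reads were deposited without a fold over the input.

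Nuclear speckles are bodies in the nucleus where splicing factors gather. The scaffold of these bodies is built by very large proteins with long stretches of alternating arginine and serine (RS), and related RS-rich proteins bridge the splicing machinery to exons. Several genes of this class are known to limit their own expression through alternative exons or retained introns that lead to nonsense-mediated decay (NMD). RBM17, also known as SPF45, is an RNA-binding protein that works with components of the U2 snRNP in the recognition of 3’ splice sites.

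The 2 replicates were deposited as different quantities. Replicate 1 holds 137095 clusters, each with a log2 fold over the input and a −log10 p, and no reads, so that its depth is unknown. Replicate 2 holds reads per cluster with no comparison with the input, and its 114848 distinct intervals summed to 1336569 reads. The 866 reproducible peaks carry 1 log2 fold and 1 −log10 p for both replicates together. Since no quantity is given for both replicates separately, no fold has a replicate error and no test between groups was possible. The 8 genes listed as markers of the K562 lineage, among them GATA1 and the fetal and embryonic hemoglobins, all had replicate 2 clusters with 19 to 1553 reads, whereas none of the 5 markers of other cell types had a cluster. Positions are in hg19, judged from the range of the clusters on chromosome 1.

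Of the 10 transcripts 6 carried reproducible peaks of RBM17, 16 in all. SRRM2 held 9 of these peaks, SON and ACIN1 2 each, and SRRM1, PNN and BCLAF1 1 each, whereas THRAP3, NSRP1, TRA2A and TRA2B had none. Among all genes with a replicate 2 cluster 4.07% held a reproducible peak, and among the 2379 genes with at least 100 replicate 2 reads, as all 10 members had, the share was 16.3%. All 10 spans held replicate 1 clusters, as did 78.4% of all genes and 2378 of those 2379, so that their presence does not set the members apart. In replicate 1, 74 of the 369 clusters of the members reached 3 both in log2 fold and in −log10 p and are called passing clusters here. This is 20.1% (exact Clopper-Pearson 95% interval 16.1 to 24.5%), against 5.35% of all replicate 1 clusters. Clusters of one gene are not independent, the interval covers counting error only, and the members were chosen with results of these data known, so these shares are a description.

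Passing clusters were present in 9 of the 10 members, all but NSRP1. The same held for 16.2% of all genes, and for 44.4% of genes with at least 100 replicate 2 reads. ACIN1 had the most with 17, followed by SRRM2 with 16, SRRM1 with 12, BCLAF1 with 8, TRA2A with 7 and THRAP3 with 5. SON, PNN and TRA2B had 3 each. A replicate 2 cluster overlapped 38 of the 74 passing clusters, which is 51.4%, against 37.9% of passing clusters in the whole series. These shares are not alike in their basis. Clusters of the members lie within a span of replicate 2 clusters by the way they were assigned, and the series value has no such limit. Of the 38 overlapped passing clusters of the members, 16 lay in a reproducible peak and 22 did not. The 16 are 21.6% of the passing clusters of the members, against 11.3% in the whole series, with the same limit.

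The median log2 fold of the replicate 1 clusters in the members was 2.14, against 1.51 for all clusters of that replicate. A fold below 0, where the input was higher, was seen at 12 of the 369 clusters (3.25%, against 11.4% overall), 5 of them in SON, 3 in NSRP1, 3 in TRA2B and 1 in BCLAF1. By gene, the median was highest in ACIN1 (2.81, 95% interval over its clusters 2.35 to 3.19), SRRM1 (2.47, 2.12 to 2.89) and SRRM2 (2.44, 2.11 to 2.82), whose intervals overlap. THRAP3 (2.19, 1.55 to 2.51) and BCLAF1 (2.14, 1.90 to 2.51) followed, also with intervals above the median of all clusters. The intervals of TRA2A (median 2.19), PNN (1.42), SON (1.38), TRA2B (1.06) and NSRP1 (0.19) included the median of all clusters. The medians of the members thus fell on both sides of that of the series as a whole, but no interval lay wholly below it. That of NSRP1, −1.13 to 1.77, is the full range of its 7 clusters and so says little.

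**Figure D1:**
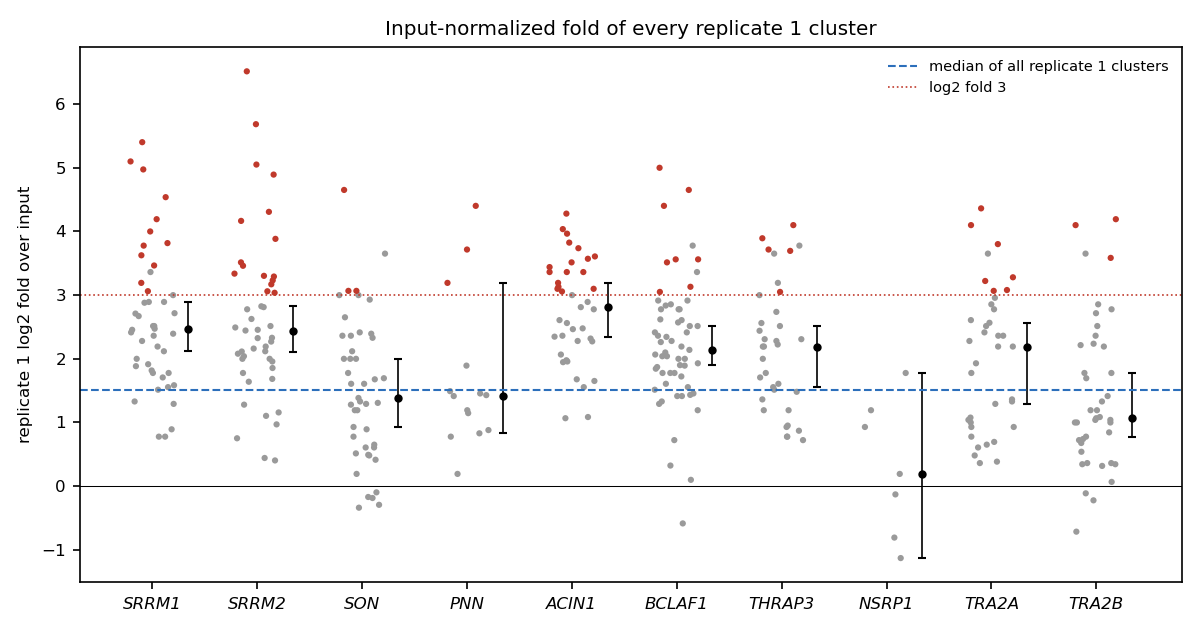
Log2 fold over the input of each replicate 1 cluster (points) in the 10 transcripts, with passing clusters in red and, in black, the median of each gene with its 95% interval over clusters. The dashed line is the median of all replicate 1 clusters, 1.51. SRRM2 reaches the highest fold, 6.51, and the 7 clusters of NSRP1 lie between −1.13 and 1.77.

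Reads in replicate 2 clusters are not corrected for the input and rise with the amount of the transcript. Per kb of the span of clusters, SRRM2 had the highest read density with 90.7 reads per kb (exact Poisson 95% interval 86.4 to 95.2), PNN had 68.4 (62.1 to 75.3) and ACIN1 33.6 (30.4 to 37.0). These 3 densities were separated by more than their counting error. TRA2B (15.5, interval 13.8 to 17.2) and SON (12.8, 11.5 to 14.1) followed, with overlapping intervals. TRA2A (9.56, 8.41 to 10.8), BCLAF1 (9.47, 8.42 to 10.6) and SRRM1 (7.39, 6.44 to 8.45) came next, again with overlapping intervals. THRAP3 with 1.76 over 80.6 kb and NSRP1 with 1.60 over 68.1 kb were lowest and overlapped each other. The order of read densities was not that of the folds: PNN was second in density with a median log2 fold near that of the whole series, and SRRM1 was eighth in density with the second highest median fold.

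**Figure D2:**
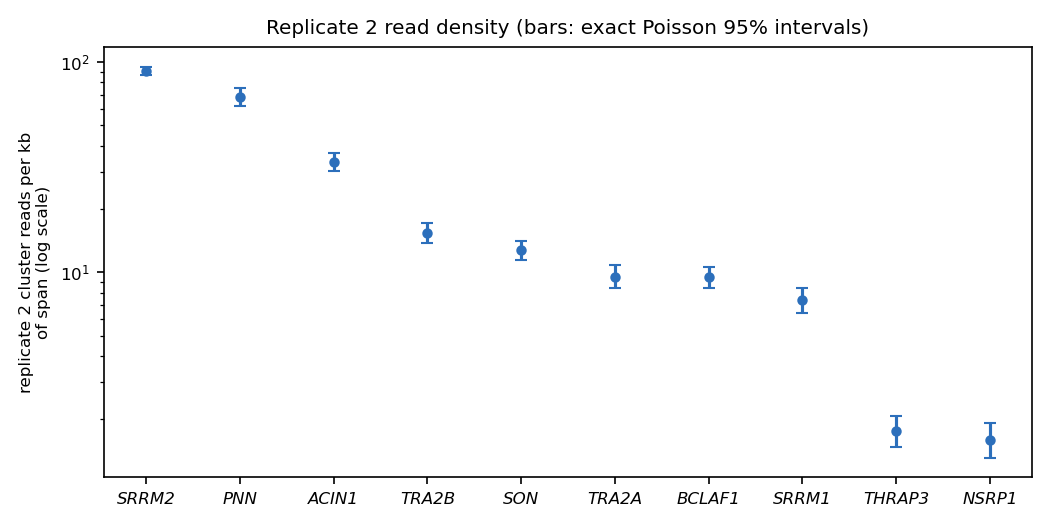
Replicate 2 reads in clusters per kb of the span of clusters, on a log axis, for each transcript in descending order, with exact Poisson 95% intervals that cover counting error in 1 library. SRRM2, at 90.7 reads per kb, stands highest, and THRAP3 and NSRP1 lie below 2.1.

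SRRM2 encodes a giant protein of the spliceosome and, with SON, forms the core of nuclear speckles. Its clusters spanned 2802701 to 2821285 on the + strand of chromosome 16. In replicate 2 it held 40 clusters with 13 to 161 reads, 1686 reads in all, which placed it at the 99.7 percentile of genes and made up 39.9% of the reads of the 10 members. In replicate 1 it held 47 clusters with log2 folds between 0.40 and 6.51, none below 0.

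All 16 passing clusters of SRRM2 lay between 3.65 and 7.39 kb from the 5’ end of this span. Within the stretch from 3.6 to 7.5 kb, replicate 1 had 26 clusters with a median log2 fold of 3.20 and replicate 2 had 840 reads, 49.8% of the gene. Beyond 7.5 kb, replicate 2 still held 766 reads in 20 clusters, up to 89 in a single cluster, but the 19 replicate 1 clusters there had a median log2 fold of 2.00 and none exceeded 2.82. Reads were therefore found on both sides of the stretch from 3.6 to 7.5 kb, whereas folds of 3 or more were found only within it. The reads were not continuous, as no replicate 2 cluster lay between those centered at 9.55 and 15.49 kb.

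The 9 reproducible peaks of SRRM2 formed 3 parts. At the 5’ side, abutting peaks at 2806336 to 2806371 and 2806372 to 2806409 lay in coding sequence, the first of them reaching into the 5’-UTR by the study's own annotation. Their log2 folds over both replicates were 3.94 and 3.30, with 4.31 and 3.51 in replicate 1 and 24 and 23 reads in replicate 2. The middle part held coding sequence peaks at 2807510 to 2807581, 2808980 to 2809046 and 2809132 to 2809163, of which the second and the third also touched a 3’-SS. They had log2 folds of 3.24, 3.08 and 3.14, close to those of replicate 1 (3.46, 3.33 and 3.30), and clusters of 42 to 59 reads in replicate 2.

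The third part of SRRM2 held the strongest peaks by −log10 p among the members. A peak at 2809719 to 2809757 was assigned to a 5’-SS, with a log2 fold of 3.10 and 39 reads. It was followed by proximal intron peaks at 2809911 to 2809957, 2809958 to 2809976 and 2810044 to 2810144, with log2 folds of 3.86, 4.76 and 3.76 and −log10 p of 32.9, 33.9 and 25.1. In replicate 1 their log2 folds were 4.16, 5.05 and 3.88. In replicate 2 the first and second of these lay under the same cluster, the one with the most reads of all members (161), and the third under a cluster of 97 reads. This part of the transcript was thus high in both replicates.

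The 2 highest folds of replicate 1 in SRRM2 lay outside the peaks. A cluster at 2808916 to 2808975 reached 6.51 with a −log10 p of 24.8, and one at 2808665 to 2808688 reached 5.68, ahead of the 5.05 of the peak at 2809958 to 2809976. A further cluster outside the peaks, at 2808288 to 2808312, reached 4.89, and no replicate 2 cluster overlapped any of these 3. They lie in the same stretch as the peaks and belong to no reproducible peak.

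SON, a DNA- and RNA-binding protein with RS repeats, is the other core scaffold of speckles. Its 37 replicate 2 clusters, on the + strand of chromosome 21 between 34919833 and 34948771, held 3 to 32 reads and 369 in all. Its 45 replicate 1 clusters had log2 folds from −0.34 to 4.65, and only 3 of them passed. The reproducible peaks, both in a distal intron, lay at 34942064 to 34942149 and 34942371 to 34942434. The first had a log2 fold of 5.14, the highest among the 16 peaks of the members, with 32 reads in replicate 2 and 4.65 in the overlapping replicate 1 cluster. The second had 3.38, with 26 reads in replicate 2 and 3.06 in replicate 1. These positions, 22.3 and 22.6 kb from the 5’ end of the span, also had the 2 highest clusters of SON in replicate 2, and within 22 to 23 kb lay 22.2% of the reads of SON. Outside that stretch the median log2 fold was 1.32 over 42 clusters.

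The scaffold transcripts had unequal numbers of passing clusters. Of the 47 clusters of SRRM2 16 passed (exact Clopper-Pearson interval 20.9 to 49.3%), against 3 of 45 in SON (1.40 to 18.3%). The intervals, which treat clusters as independent, do not overlap, and the difference was not tested.

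**Figure D3:**
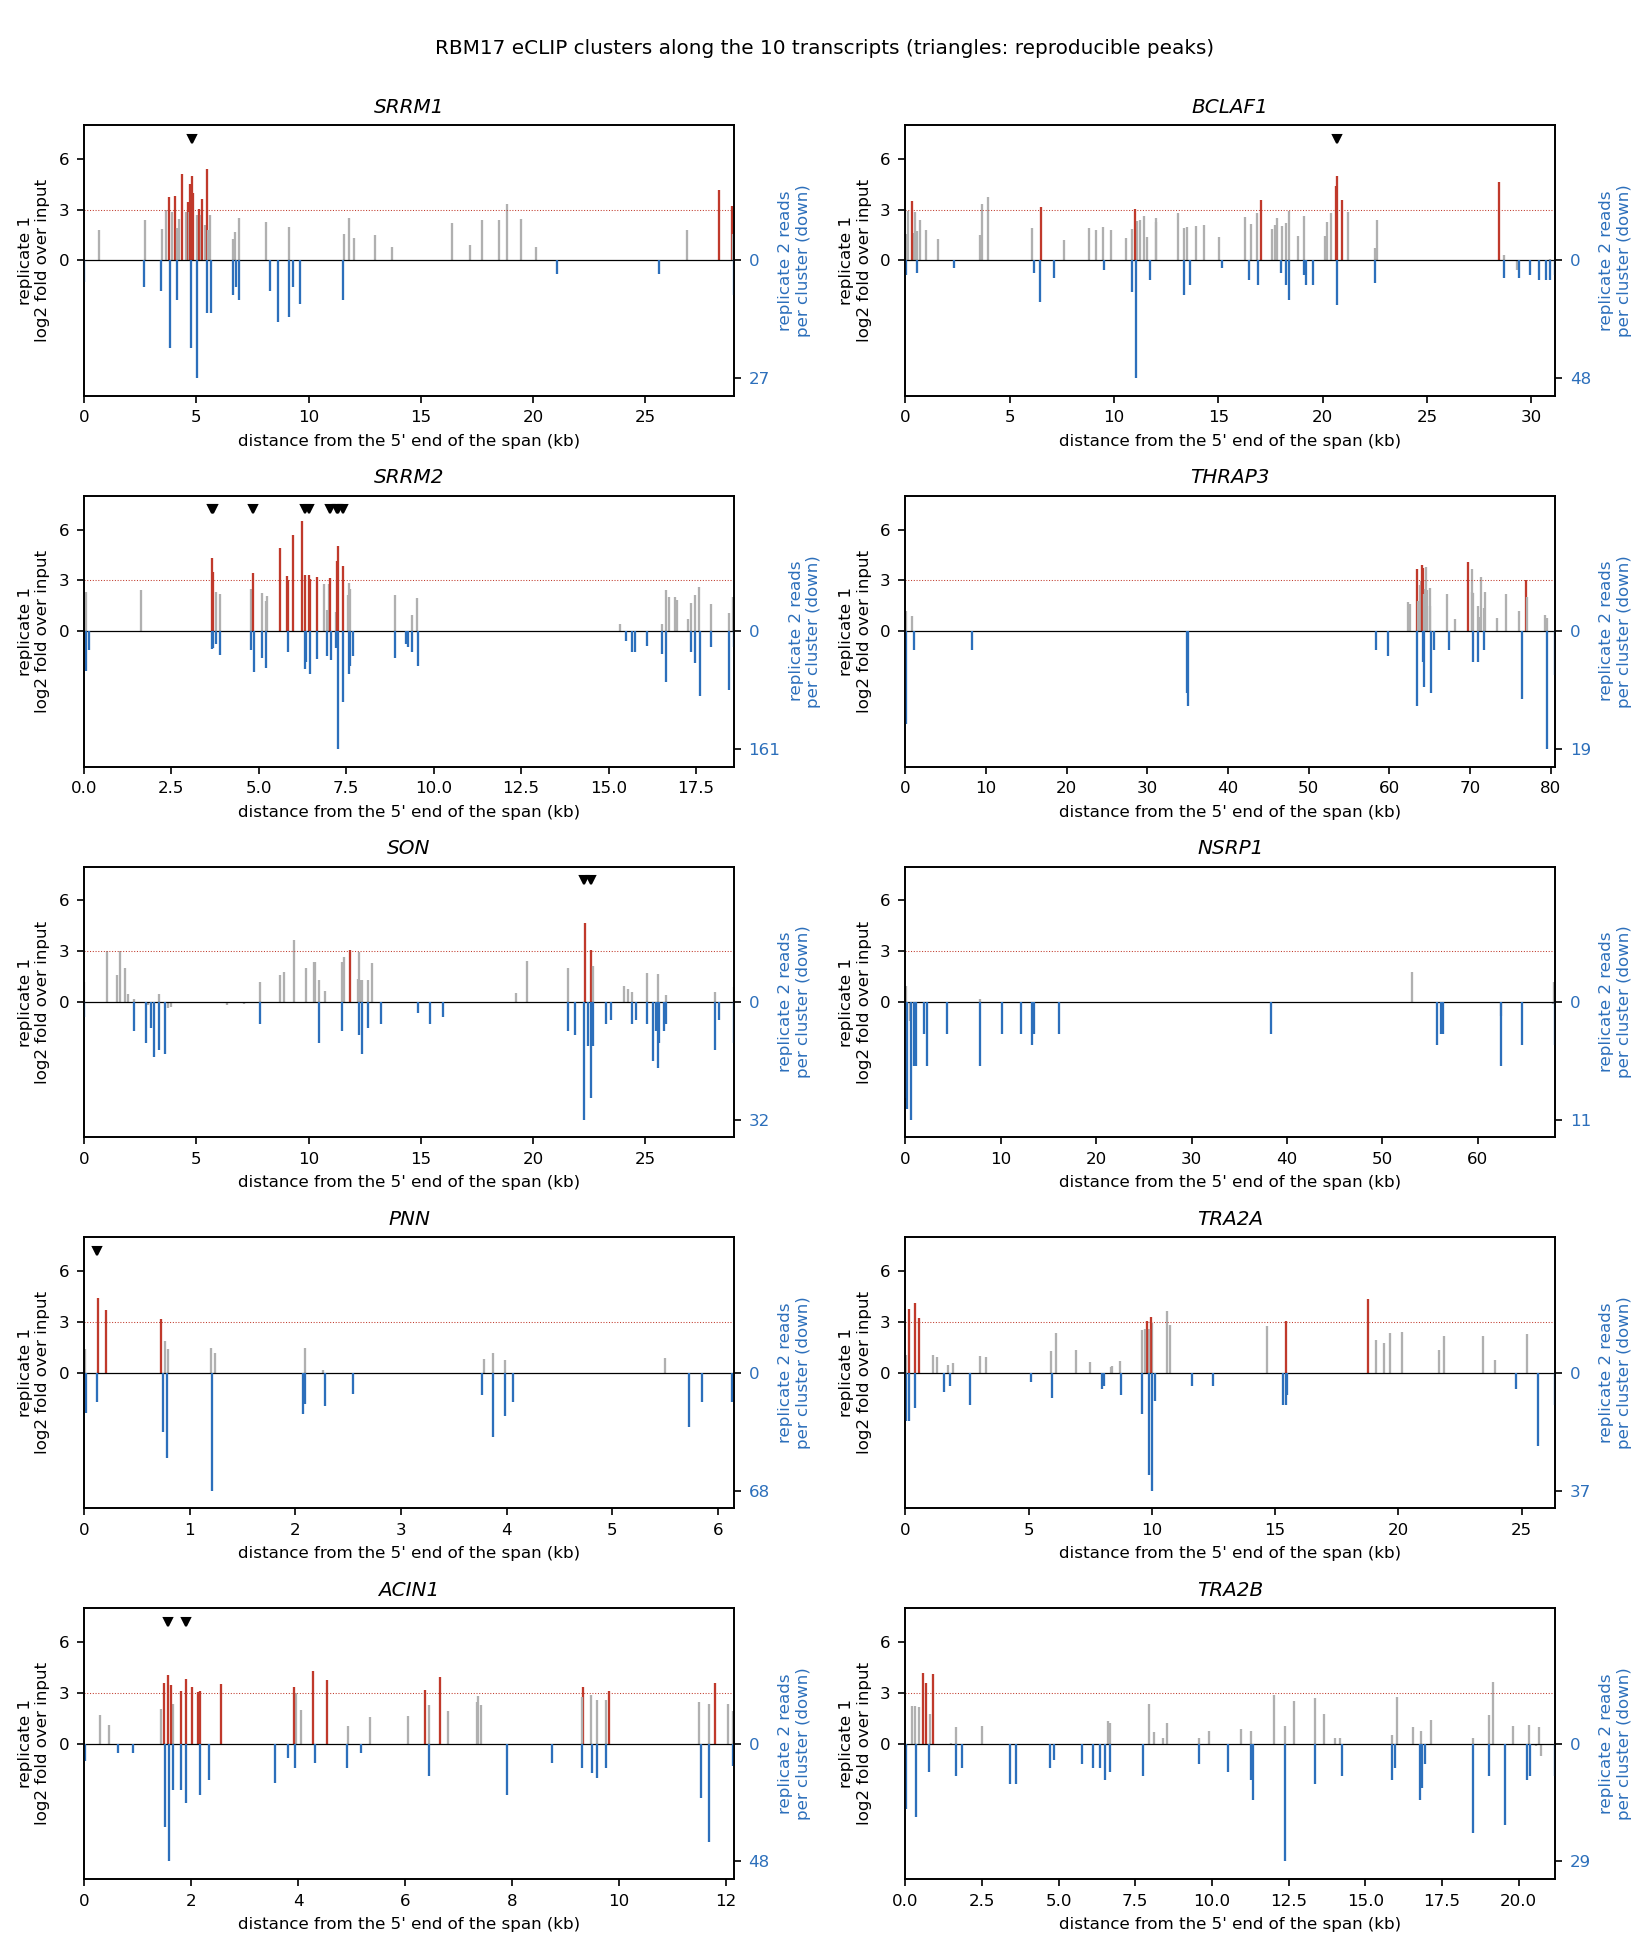
Clusters along each transcript, with the distance in kb from the 5’ end of its span of replicate 2 clusters on the x axis. Upward lines give the log2 fold over the input of replicate 1 clusters (red where passing, gray otherwise, folds below 0 downward and partly hidden by the blue lines), blue downward lines the reads of replicate 2 clusters on a scale of their own for each gene, and triangles the 16 reproducible peaks. The 16 red lines of SRRM2 and 10 of 12 in SRRM1 gather in 1 stretch, those of ACIN1 are densest near 2 kb but reach the 3’ end, those of TRA2B lie within 1 kb of the 5’ end, and NSRP1 has none.

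SRRM1 encodes an RS-rich splicing coactivator that joins SR proteins and the exon junction complex. Its 21 replicate 2 clusters, on the + strand of chromosome 1 between 24969820 and 24998758, held 214 reads, with 3 to 27 per cluster, and its 45 replicate 1 clusters had log2 folds from 0.77 to 5.40. Of its 12 passing clusters, 10 lay in a stretch from 3.7 to 5.6 kb from the 5’ end. This stretch had 19 replicate 1 clusters with a median log2 fold of 3.06, against 2.09 over the 26 clusters outside it, and 88 of the 214 reads of replicate 2. The remaining passing clusters, near the 3’ end, were 5 and 6 bp long. A replicate 2 cluster overlapped 4 of the 12 passing clusters, all in the stretch, and none overlapped the other 8.

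The single reproducible peak of SRRM1, annotated to a distal intron, lay inside this stretch at 24974579 to 24974658. Its log2 fold over both replicates was 3.77 and its −log10 p 3.43, whereas the same interval had 4.97 and 30.5 in replicate 1 and a cluster of 20 reads overlapped it in replicate 2. The difference of 1.20 between these log2 folds was the largest among the 14 member peaks with an identical replicate 1 interval. The highest replicate 1 fold, 5.40 at 24975284 to 24975309, had 12 reads in replicate 2, and the replicate 2 cluster with most reads, 27 at 24974818 to 24974881, had a replicate 1 log2 fold of 2.71. Neither was a reproducible peak.

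PNN (pinin) and ACIN1 (acinus) are RS-rich partners of RNPS1 and SAP18 in the PSAP and ASAP complexes, which associate with the exon junction complex. The 26 replicate 2 clusters of ACIN1, on the − strand of chromosome 14 between 23527979 and 23540125, held 4 to 48 reads and 408 in all. Its 39 replicate 1 clusters ranged in log2 fold from 1.06 to 4.28, so that each one was above the input, and 43.6% of them passed (17 of 39, exact Clopper-Pearson interval 27.8 to 60.4%), the highest share among the members. A stretch from 1.4 to 2.6 kb from the 5’ end held 9 of these, with 180 reads in replicate 2 (44.1% of the gene), but the other 8 were scattered up to 11.8 kb from the 5’ end, and only 1 of those 8 overlapped a replicate 2 cluster.

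Both reproducible peaks of ACIN1 lay in this 5’ stretch. The peak at 23538517 to 23538594 covered a 5’-SS and the proximal intron, with a log2 fold of 3.40 over both replicates, 4.03 in replicate 1 and up to 48 reads in replicate 2, the most of any cluster of the gene. The peak at 23538204 to 23538252, in a proximal intron, had 3.33, 3.82 and 24 reads. On either side of the first peak, abutting clusters also passed, at 3.44 and 3.60 on the log2 scale, with 48 and 34 reads in the replicate 2 clusters over them.

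PNN had few but well covered clusters. On the + strand of chromosome 14, between 39644558 and 39650708, replicate 2 had 16 clusters with 12 to 68 reads, 421 in all, and 85.7% of its 14 replicate 1 clusters overlapped one of them, the highest share among the members. The share was 39.3% over the members together and 26.3% over all replicate 1 clusters, which have no limit to a span. All 3 passing clusters of PNN lay within 0.8 kb of the 5’ end, and the 8 replicate 1 clusters beyond had log2 folds of at most 1.49. The reproducible peak, at 39644664 to 39644703 over a 5’-SS, had a log2 fold of 4.72 with 17 reads in replicate 2, and the overlapping replicate 1 cluster, 88 bp long, had 4.40. The cluster with most reads, 68 at 39645729 to 39645800, had replicate 1 log2 folds of only 1.19 and 1.49. In PNN the position with most reads and the position of the peak were therefore different.

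BCLAF1 and THRAP3 are related RS-rich proteins that bind mRNA and take part in splicing and mRNA export. BCLAF1, on the − strand of chromosome 6 between 136579633 and 136610774, had the most replicate 1 clusters of the members (59, log2 folds from −0.59 to 4.997), of which 8 passed. Its reproducible peak, at 136590074 to 136590121 in a proximal intron, had a log2 fold of 4.58, with 4.997 in replicate 1 and 18 reads in replicate 2. The adjoining replicate 1 cluster at 136590122 to 136590187 had 4.40 and lay under the same replicate 2 cluster. The cluster with most reads in BCLAF1, 48 of its 295, lay at 136599674 to 136599786, where replicate 1 had log2 folds of 3.05 and 2.34. It was no reproducible peak.

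THRAP3 had no reproducible peak. Its 19 replicate 2 clusters, on the + strand of chromosome 1 between 36690068 and 36770655, held 3 to 19 reads and 142 in all, and its 35 replicate 1 clusters ranged in log2 fold from 0.72 to 4.10. Of the 5 passing clusters, 3 lay between 63 and 65 kb from the 5’ end, with log2 folds of 3.69 at 36753520 to 36753577, 3.89 at 36754104 to 36754109 and 3.71 at 36754212 to 36754251. In replicate 2 the first had a cluster of 12 reads, the last one of 5, and the other had none. The most-read cluster, 19 reads near the 3’ end, had a replicate 1 log2 fold of 0.77.

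NSRP1 encodes a speckle protein that regulates alternative splice site choice, and it had the fewest replicate 2 reads and replicate 1 clusters of the members. Its 22 replicate 2 clusters, on the + strand of chromosome 17 between 28443878 and 28511997, held 3 to 11 reads and 109 in all, of which 42 lay within 1 kb of the 5’ end. Over the whole span replicate 1 had 7 clusters, with log2 folds from −1.13 to 1.77, 3 of them below 0 and none passing (0 of 7, an exact Clopper-Pearson interval of up to 41.0%). The most-read cluster of replicate 2 had no replicate 1 cluster. This interval includes the share of passing clusters of each other member except ACIN1.

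TRA2A and TRA2B are sequence-specific splicing activators with RS domains on both sides of an RNA-binding domain, and they resemble each other in sequence. How reads that fit both genes were treated is not given in the sources used here. Neither gene had a reproducible peak, although both had passing clusters at the 5’ end of the transcript. In TRA2A, on the − strand of chromosome 7 between 23545088 and 23571456, 3 of the 7 passing clusters lay within 0.6 kb of the 5’ end. The first, at 23571281 to 23571354, had a log2 fold of 3.80, the second, at 23571018 to 23571094, had 4.10, and the third, at 23570885 to 23570947, had 3.22. Replicate 2 had a cluster of 15 reads at the first, one of 11 at the second and none at the third.

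A second position in TRA2A was covered in both replicates. Between 9.5 and 10.5 kb from the 5’ end, replicate 2 had 91 of the 252 reads of the gene, including its 2 highest clusters with 37 and 32 reads. The 6 replicate 1 clusters there had log2 folds from 2.51 to 3.28, and 2 passed, at 23561479 to 23561513 with 3.28 and at 23561607 to 23561668 with 3.08. These were just above the fold of 3, and no reproducible peak was listed there. The highest replicate 1 log2 fold of TRA2A, 4.36, lay elsewhere, at 23552690 to 23552699. No replicate 2 cluster overlapped it.

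In TRA2B, on the − strand of chromosome 3 between 185634565 and 185655759, replicate 2 held more reads than in TRA2A (328 against 252) in 33 clusters of 4 to 29 reads. The 41 replicate 1 clusters of TRA2B had a median log2 fold of 1.06, below the 1.51 of all clusters, and ranged from −0.72 to 4.19. Its 3 passing clusters reached 4.19 at 185655169 to 185655219, 3.58 at 185655064 to 185655112 and 4.10 at 185654856 to 185654887, and lay 0.57 to 0.89 kb from the 5’ end. No replicate 2 cluster overlapped any of them, although 3 clusters with 41 reads in total lay within the same first kb. The cluster with most reads in TRA2B, 29 at 185643324 to 185643415, had a replicate 1 log2 fold of 1.04.

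Over the 16 reproducible peaks of the members, log2 folds ranged from 3.08 to 5.14 with a median of 3.58, against a median of 3.80 for all 866 peaks. By the first region in the study's annotation, 5 lay in coding sequence, all in SRRM2, 5 in proximal introns, 3 in distal introns and 3 at a 5’-SS. For 14 peaks replicate 1 had a cluster with the identical interval. Its log2 fold was above the value over both replicates at 13 of them, by up to 1.20, and below it at 1, the second peak of SON. The other 2 peaks, the first of SON and that of PNN, had overlapping replicate 1 clusters of other bounds.

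**Figure D4:**
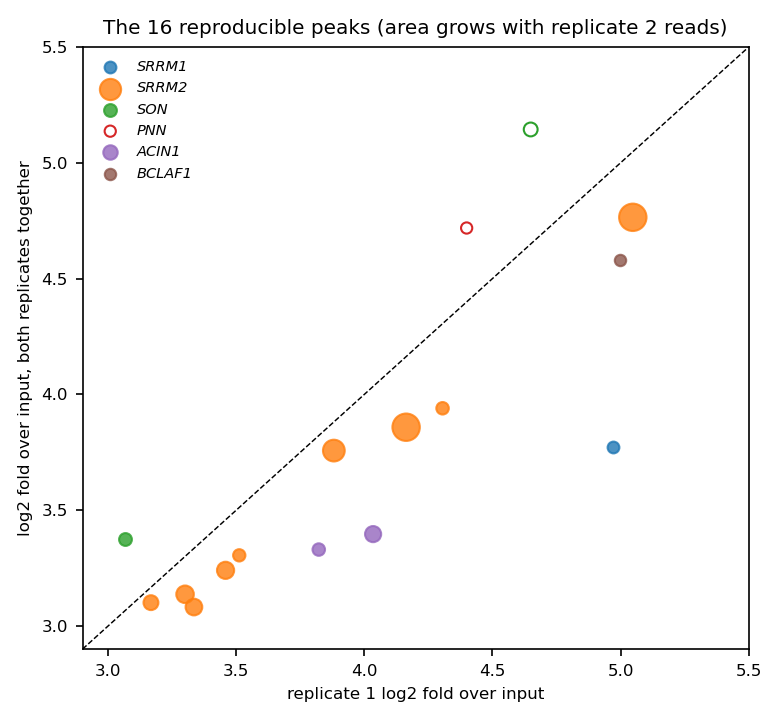
Log2 fold over the input of the 16 reproducible peaks, in replicate 1 on the x axis and for both replicates together on the y axis, with an area that grows with the reads of the overlapping replicate 2 cluster. Open circles mark the 2 peaks with no identical replicate 1 interval, and the dashed line marks equal values. All 9 points of SRRM2 lie below the line, and SRRM1 lies farthest below it, at 4.97 and 3.77.

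Enriched clusters lay toward the 5’ end in part of the members. Of the 74 passing clusters, 32 were in the first 25% of the span of their gene (43.2%), whereas 29.8% of all replicate 1 clusters of the members were. Over all genes with a span of at least 1000 bp these shares were 31.4% and 25.8%. The higher share of the members depended on this limit. In the first 10% of the span lay 12.2% of their passing clusters, against 21.0% over all genes. In the first 20% the shares were 40.5% and 27.9%. The median position of passing clusters was 32.2% of the span in the members and 49.0% over all genes. Much of this gap was also there without regard to the fold, as the median position of all replicate 1 clusters was 40.6% in the members and 54.3% over all genes. This position was not shared by all members. All passing clusters of PNN and TRA2B, 10 of 12 in SRRM1, 9 of 17 in ACIN1 and 3 of 7 in TRA2A were in the first 25%. The counts were 2 of 16 in SRRM2, 2 of 8 in BCLAF1, 0 of 3 in SON and 0 of 5 in THRAP3. Clusters side by side in one stretch are not independent, and the spans run from the first to the last replicate 2 cluster instead of the annotated gene ends.

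**Figure D5:**
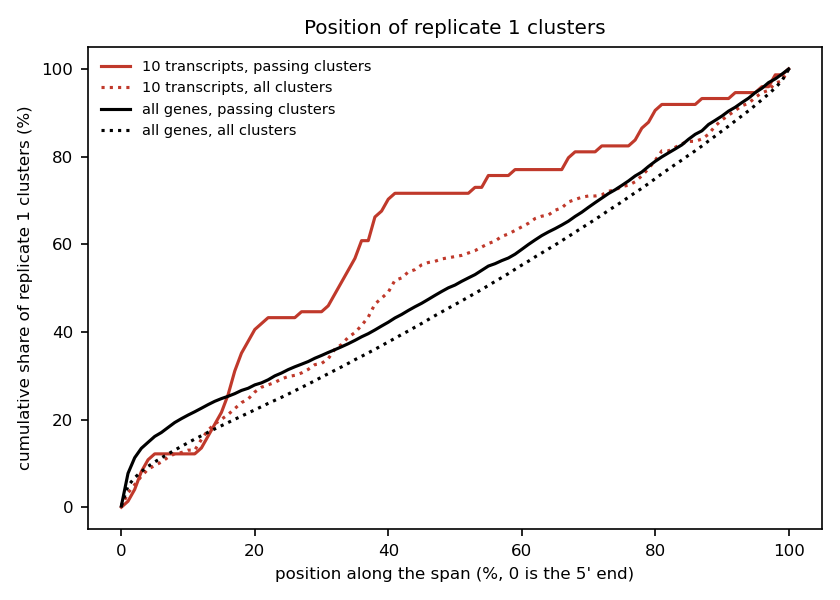
Cumulative share of replicate 1 clusters against their position along the span of the gene, from the 5’ end at 0% to the 3’ end, for the 10 transcripts (red) and all genes (black). Solid lines are passing clusters and dotted lines all clusters. The solid red line steps up near 15 to 20% (SRRM1 and ACIN1) and 30 to 40% (SRRM2) of the span.

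Among other genes of the pathway, 2 lists were described. Of 6 exon junction complex and ASAP or PSAP partners, 2 had passing clusters and 1 a reproducible peak. This was CASC3, a core exon junction complex protein, with 1 peak of log2 fold 4.19 and 7 passing clusters. RNPS1, the shared partner of PNN and ACIN1 and named here after its values were seen, had 19 replicate 1 clusters of which 0 passed, and RBM8A was not found in replicate 2 by its identifier. Of 17 other genes for RS-rich or speckle proteins, 10 had passing clusters and 7 carried 20 reproducible peaks in all. These were NKTR, a cyclophilin with RS repeats, with 6 peaks, LUC7L, a U1 snRNP-associated protein, with 4, PNISR and SFSWAP with 3 each, SREK1 with 2, and CLASRP and RSRP1 with 1 each. Among all genes with a replicate 2 cluster, 16.2% held passing clusters and 4.07% a reproducible peak. Among genes with at least 100 replicate 2 reads, as 14 of the 17 and 2 of the 6 had, the shares were 44.4% and 16.3%. Of the replicate 1 clusters in these 17 genes 9.52% passed, and in the 6 partners 12.5%, beside the 20.1% of the members and the 5.35% of all clusters. Single genes weigh on both shares. RSRC2, named here after its values were seen, held 20 of the 61 passing clusters of the 17 genes, and CASC3 held 7 of the 9 of the partners.

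SRRM2 decides part of the counts given for the members together. Without it 7 peaks and 2538 of the 4224 replicate 2 reads remain, and 58 of 322 replicate 1 clusters passed (18.0%). In replicate 1, 21 of the 74 passing clusters had exactly the same pair of log2 fold and −log10 p as another of them.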

How the data were processed

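The authors made the files with an eCLIP pipeline, and the labels name cutadapt and STAR without versions. In replicate 1, the deposited columns give each cluster a −log10 p (highest value 400) and its log2 fold against the size-matched input. In replicate 2 the deposited p-value is that of the peak caller, at most 0.05, with no input involved, and gene and reads stand in the cluster names. The reproducible list as deposited by the authors has a joint −log10 p and log2 value per peak. The build used for eCLIP is not given in the sources used here, and hg19 was taken from the range of positions.

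Replicates are numbered as in the sample descriptions, whereas the titles number them 2 and 3. Symbols were matched to identifiers with GENCODE v44, which found all 10 genes. Clusters and peaks were assigned by an overlap of at least 1 bp on the same strand, and no replicate 1 cluster of the members lay in the span of another gene. Regions of peaks are names from the study's own peak annotation. Computation used Python 3.11.15, pandas 2.3.3, numpy 2.4.6, scipy 1.17.1 and matplotlib 3.10.9. Overlaps and intervals were tested on simulated data. Shares have exact Clopper-Pearson, reads exact Poisson and medians binomial order-statistic 95% intervals, which cover counting error only. The members and lists were chosen with earlier results of these data known. All members were named, with their peaks, most-read replicate 2 cluster and highest replicate 1 fold, and of the other lists the genes with a peak. Other clusters named, and the bounds of the stretches, were chosen after the values were seen. Alternatives changed the fold, −log10 p, caller p and overlap limits. Sequences of the peaks were not read, since no hg19 genome was used here.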

Additional observations from a re-analysis of the deposited data

How the results depend on the processing

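Raising the log2 limit to 4 left 4 of the 16 peaks, in 4 genes, and 23 of the 74 passing clusters, in 9 genes. Raising the −log10 p limit to 5 left 13 peaks in 4 genes and 60 passing clusters. A replicate 2 cluster covered at least 50% of 15 peaks, and merging abutting peaks left 14. Replicate 2 clusters with a caller p of at most 1e-10 held 2369 of the 4224 reads. The median log2 fold was 2.89 over clusters whose −log10 p reached 3, against 2.14 over all. The share of replicate 1 clusters that overlap replicate 2 was 39.3%, 31.2% when 50% of the cluster had to overlap, and 17.9% with replicate 2 clusters of p at most 1e-10. Over all replicate 1 clusters the first of these shares was 26.3%. That value has no limit to a replicate 2 span, which the clusters of the members have by their assignment. Leaving out SRRM2, an alternative added after the data were seen, gave 7 peaks and 2538 reads. Of 30 counts of passing clusters per gene under an alternative, 11 moved by over 1.5 times and 17 were lower than before. The 30 include counts that could not change. Keeping only clusters in the span of exactly 1 gene removed none, as no member cluster lay in another span. NSRP1 started from 0 passing clusters. All 10 genes had clusters without replicate 1 and without replicate 2, but replicate 2 sets the span of each gene in both cases, so this count says nothing about stability. No paired analysis was possible because the replicates belong to 1 group and no result comes from a test.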

Other observations

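The genes below were picked out after their values were seen. RSRC2, which encodes another RS-rich protein, had 20 passing clusters among its 42 replicate 1 clusters, with a median log2 fold of 3.19 and 213 replicate 2 reads, and no reproducible peak. LUC7L2 had the most replicate 2 reads among the 17 other RS-rich or speckle genes, 1563, with a median log2 fold of 0.41 and 0 passing clusters. ARGLU1, with 550 reads, had a median log2 fold of 1.44 and 0 passing clusters.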
